A study of Mus musculus with 50 samples.

Results

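Hearts of young mice with a cardiomyocyte-restricted Gαq transgene were set against hearts of older mice of the parent strain. The comparison took the 5 Tgαq*44 mice at 4 months and the 5 FVB mice at 8 months, chosen by strain and age from the sample titles, which is 10 of the 50 mice sequenced. Tgαq*44 mice are FVB mice that express a constitutively active Gαq subunit in cardiomyocytes, and FVB mice are their wild-type parent strain. All 50 mice were female, were kept on standard chow in pathogen-free housing with 12 h of light and 12 h of darkness, and gave RNA from the apex of the left ventricle. Each mouse was 1 polyA-selected library. The other mice were FVB and Tgαq*44 mice of the remaining ages out of 4, 8, 10, 12 and 14 months, again 5 in each group. In the contrast used here strain and age differed together, so the part of each cannot be told apart. It was set up because FVB mice at 4 months had a high level of genes that respond to glucocorticoids, which FVB mice at 8 months did not share. FVB mice of 4 months are also the reference wherever a change with age in FVB mice is given. There age and that state cannot be told apart. In what follows Tgαq*44 stands for 4 months and FVB for 8 months unless another age is given, values are counts scaled to an equal library total (CPM), and lists of 5 values run from mouse 1 to mouse 5 of a group.

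Gαq couples receptors for angiotensin II, endothelin and α1-adrenergic agonists to phospholipase C-β, which releases inositol trisphosphate and diacylglycerol and so acts on calcium and protein kinase C. Sustained activity of this pathway in cardiomyocytes is known for hypertrophy, for the return of foetal genes such as that of atrial natriuretic peptide, and later for dilated cardiomyopathy. Ageing in the rodent heart is known for more interstitial collagen and for higher levels of immune genes.

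The total count per library was 13639021 to 21395747 in Tgαq*44 and 9998763 to 15945956 in FVB mice (exact permutation test, two-sided, p = 0.0397), and the share of mitochondrially encoded transcripts was 23.5% ± 2.96 and 26.0% ± 4.72 (exact permutation test, two-sided, p = 0.341). Log2 CPM of libraries of the same group correlated with r from 0.983 to 0.990 in Tgαq*44 and from 0.964 to 0.987 in FVB mice. The first principal component of the 10 libraries, with 30.5% of the variance, separated the groups. The summed level of 13 ventricular cardiomyocyte markers was 50442 CPM or more in each of the 10 libraries, as for heart muscle. FVB mouse 2 stood apart in genes of the circadian clock and FVB mouse 3 in interferon-induced genes, and both are described with those genes. In bulk tissue, fewer cells of a type and less RNA per cell cannot be told apart.

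Of 15129 genes tested, 199 were differentially expressed genes (DEGs) higher in Tgαq*44 mice, or 1.32% of all genes, and 171 were DEGs lower, or 1.13%, which is 2.45% in all. A DEG had an absolute log2 fold change above 1 and an adjusted p under 0.05 in edgeR's quasi-likelihood F-test with Benjamini-Hochberg adjustment over all genes, the test behind every adjusted p here. Without the fold change minimum, 1006 genes were higher (6.65%) and 1247 lower (8.24%), and this rule was used to count the members of the gene lists. The median log2 fold change of all genes tested was 0.01. Where a list is said to have none in a direction, no member had an adjusted p under 0.05 there. The CPM of the groups did not overlap for 132 of the 199 higher and 99 of the 171 lower DEGs, against 4.53% and 5.53% of all genes. For 34 higher and 23 lower DEGs all 5 Tgαq*44 mice lay outside the range of all 25 FVB mice of any age, against 0.74% and 0.529% of all genes. DEGs were chosen by the difference between mice that enter both of these counts. That choice alone raises the shares above those of all genes. No DEG reversed its direction in any of the other settings tried, but the count fell from 370 to 288 without Tgαq*44 mouse 2 and to 291 without FVB mouse 3. It was 113 among genes with a mean of at least 5 CPM and 137 with glmTreat, which tests against a log2 fold change of 0.5.

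**Figure D1:**
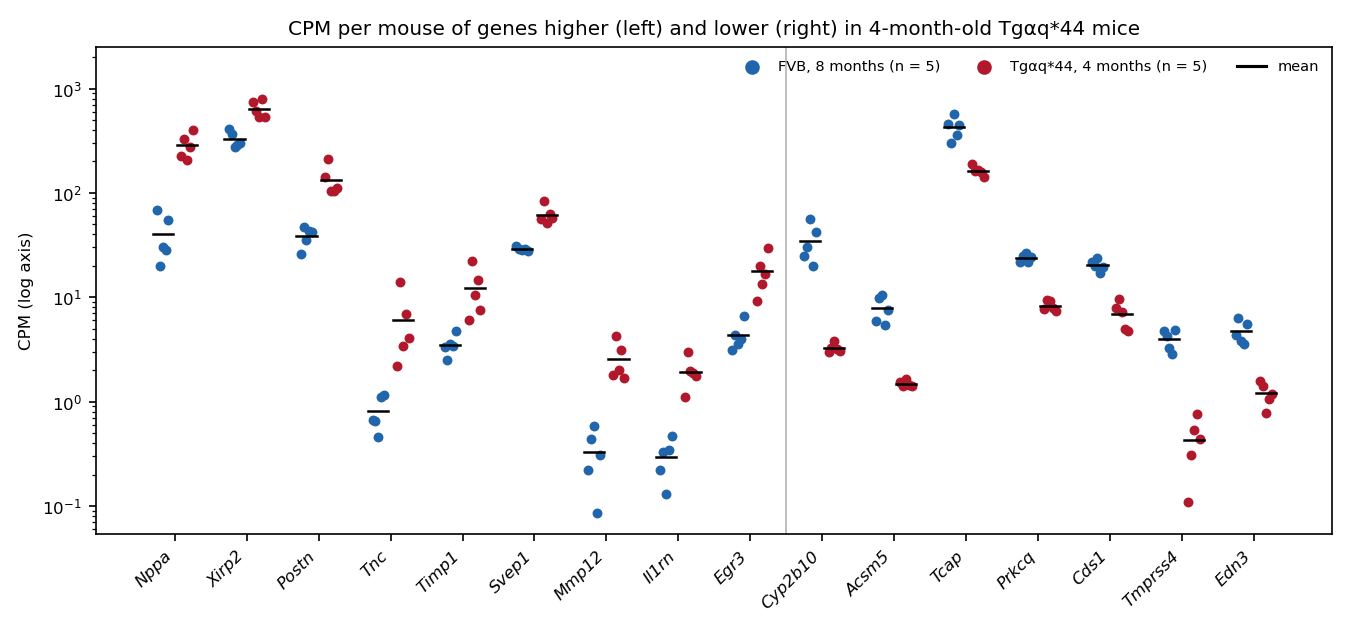
CPM on a log axis of 16 DEGs and other called genes, 1 point per mouse with the group mean as a bar, FVB at 8 months in blue and Tgαq*44 at 4 months in red. For each gene shown the 5 Tgαq*44 mice lie apart from the 5 FVB mice: Nppa ran from 207 to 397 in Tgαq*44 and 20.1 to 68.0 in FVB mice, Tcap from 142 to 190.2 and 300.4 to 575.

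The transcript of the transgenic protein was examined first. Gnaq (ENSMUSG00000024639, chr19:16132831-16387463, GRCm38) had 36.7, 36.1, 27.6, 27.9 and 26.3 CPM in the Tgαq*44 mice and 22.8, 23.0, 17.6, 18.5 and 13.7 CPM in the FVB mice. The groups did not overlap and the level was 1.62 times higher in Tgαq*44 mice (log2 fold change 0.70 ± 0.19 (SE), adjusted p = 0.0071). The count does not separate the transgene from the endogenous gene. Against FVB mice of 4 months the log2 fold change of Gnaq was 0.42, adjusted p = 0.11, and between FVB mice of 8 and 4 months it was -0.28, adjusted p = 0.37.

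Among 32 tested genes of Gαq and phospholipase C signalling, 4 were higher and 1 was lower, with a median log2 fold change of 0.07. Of all genes 6.65% were higher and 8.24% lower. The higher count was 2 in a fit with only the 10 mice compared and with no low-count filter. The lower gene, Prkcq (ENSMUSG00000026778, chr2:11172108-11301222), encodes protein kinase C-θ, an isoform best known from T cells and skeletal muscle. Its level was 7.67, 9.40, 9.15, 7.96 and 7.38 CPM in Tgαq*44 and 21.5, 25.0, 26.5, 21.9 and 24.2 CPM in FVB mice, so the groups were far apart and varied little within themselves (log2 fold change -1.52 ± 0.11 (SE), adjusted p = 7.0e-15). Prkcq also rose with age in FVB mice (8 against 4 months, log2 fold change 1.01, adjusted p = 4.8e-09) and was lower in Tgαq*44 than in FVB mice of 4 months (-0.51, adjusted p = 5.9e-04). Plce1, which encodes phospholipase C-ε, was higher (log2 fold change 0.42, adjusted p = 0.014) but not without FVB mouse 3 (adjusted p = 0.053). The phospholipase C-β genes Plcb1, Plcb3 and Plcb4 had log2 fold changes of 0.09, 0.22 and 0.21, and those of the protein kinase C genes Prkca, Prkcd and Prkce were -0.01, 0.06 and -0.14; none of these passed the test. Rgs2, which encodes an inhibitor of Gαq, had a log2 fold change of 0.03.

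Of 22 neurohormonal genes, with receptors and hormones that act upstream of Gαq, 3 were higher and 3 lower. Their median log2 fold change was -0.05, and of all genes 6.65% were higher and 8.24% lower. Agtr1a, the type 1 angiotensin II receptor, had 34.8, 29.8, 44.4, 36.8 and 33.9 CPM in Tgαq*44 and 72.4, 70.4, 65.4, 62.4 and 60.4 CPM in FVB mice, and Adra1a, the α1A-adrenergic receptor, had 14.0, 9.58, 17.8, 11.3 and 13.4 CPM and 28.6, 27.6, 21.5, 21.4 and 23.1 CPM. Both receptors were lower in every Tgαq*44 mouse than in any FVB mouse (log2 fold change -0.88 ± 0.17 (SE), adjusted p = 2.1e-04 for Agtr1a and log2 fold change -0.88 ± 0.18 (SE), adjusted p = 5.9e-04 for Adra1a). Edn3, encoding the peptide endothelin 3, was 3.95 times lower (log2 fold change -1.96 ± 0.26 (SE), adjusted p = 3.1e-07). Ace, encoding the angiotensin-converting enzyme, ran from 88.3 to 133 CPM in Tgαq*44 and 43.8 to 83.0 CPM in FVB mice (log2 fold change 0.77, adjusted p = 9.1e-04). Ace was also lower in FVB mice at 8 than at 4 months (-0.72, adjusted p = 0.0022), and the log2 fold change of Tgαq*44 against 4-month-old FVB mice was 0.05, adjusted p = 0.88.

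Genes of the foetal and hypertrophic programme were led by Nppa, the gene of atrial natriuretic peptide. Nppa (ENSMUSG00000041616, chr4:148000722-148002079) had 228, 330.3, 207, 278 and 397 CPM in the Tgαq*44 mice and 68.0, 20.1, 30.4, 28.3 and 55.3 CPM in the FVB mice. The lowest Tgαq*44 mouse was about 3 times above the highest FVB mouse, and the mean was 7.13 times higher (log2 fold change 2.83 ± 0.37 (SE), adjusted p = 4.0e-07). Xirp2, encoding a protein of the intercalated disc that binds actin, had 737, 608, 537, 794 and 538 CPM against 409, 369.8, 272, 287 and 303 CPM (log2 fold change 0.97 ± 0.16 (SE), adjusted p = 2.3e-05). Rcan1, a target and regulator of calcineurin, ran from 228 to 406 CPM in Tgαq*44 and 133 to 217 CPM in FVB mice (log2 fold change 0.92 ± 0.20 (SE), adjusted p = 7.5e-04). These 3 genes kept their calls without any 1 mouse.

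Nppa is also a marker of atrial cardiomyocytes. Of 10 tested atrial markers 3 were higher, Nppa, Dkk3 and Mybphl, and 1 was lower, Stard10 (-0.48, adjusted p = 0.0056). Mybphl, a myosin-binding protein, was at a low level, at 1.97, 0.122, 0.357, 0.668 and 0.738 CPM in Tgαq*44 and 0.446, 0, 0.130, 0.425 and 0.233 CPM in FVB mice, which overlapped (1.66, adjusted p = 0.043), and its call was lost in 6 of the 10 fits that left out 1 mouse, with an adjusted p between 0.053 and 0.32 (without Tgαq*44 mouse 1, 4 or 5, or FVB mouse 2, 3 or 5). The summed level of the 10 markers ran from 269 to 463 CPM in Tgαq*44 and 91.1 to 138 CPM in FVB mice, and without Nppa from 56.7 to 67.0 CPM and 62.8 to 74.8 CPM. Myl7, the atrial myosin light chain, had 0 to 5 counts per library in Tgαq*44 and 0 to 3 in FVB mice, and Sln, encoding sarcolipin, 3 to 70 and 0 to 4, with the 70 in Tgαq*44 mouse 1.

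In all, 6 of 19 genes of this programme were higher and none was lower, with a median log2 fold change of 0.33, and 3 were higher without FVB mouse 3. Nppb, encoding the B-type natriuretic peptide, ran from 279.6 to 658 CPM in Tgαq*44 and 163 to 341 CPM in FVB mice, which overlapped (log2 fold change 0.95, adjusted p = 0.015), and its call was lost without FVB mouse 3 (0.82, adjusted p = 0.061). Myh7, the slow myosin heavy chain, did not pass the test (log2 fold change -0.16, adjusted p = 0.61). Acta1, skeletal α-actin, had 874, 2009, 723, 1229 and 1392 CPM in Tgαq*44 and 619, 406, 638, 634 and 1183 CPM in FVB mice and also missed the threshold (0.84, adjusted p = 0.092), which it passed with no low-count filter (adjusted p = 0.037). Ankrd1, a stress-responsive ankyrin repeat protein, was higher in Tgαq*44 than in FVB mice of 4 months (log2 fold change 0.89, adjusted p = 8.8e-05) and higher in FVB mice of 8 than of 4 months (1.00, adjusted p = 3.3e-05), and against the FVB mice of 8 months its log2 fold change was -0.11, adjusted p = 0.72.

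Matrix genes were the largest group of higher genes among the lists. Of 25 collagen genes 11 were higher and 1 was lower, with a median log2 fold change of 0.49, and limma-voom called 7 higher. Col1a1, a chain of collagen I, had 222, 393, 135, 174 and 289 CPM in Tgαq*44 and 63.8, 54.0, 104, 103 and 150.4 CPM in FVB mice (log2 fold change 1.35 ± 0.28 (SE), adjusted p = 6.4e-04). The lowest Tgαq*44 mouse and the highest FVB mouse overlapped for this gene. Col14a1, a collagen found on the surface of fibrils, did not overlap between the groups, with 72.6, 78.8, 47.7, 42.9 and 52.3 CPM against 25.2, 27.7, 35.5, 26.7 and 34.4 CPM (log2 fold change 0.97 ± 0.16 (SE), adjusted p = 1.4e-05). Col1a2, Col3a1 and Col5a2 had log2 fold changes of 1.07, 1.06 and 0.98, each highest in Tgαq*44 mouse 2. Collagen levels had also risen with age in FVB mice, where 7 of 25 collagens were higher at 8 than at 4 months, Col3a1 among them (log2 fold change 1.13, adjusted p = 0.0021), against 6.76% of all genes.

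Of 36 matrix glycoproteins and matricellular proteins 16 were higher and none lower, with a median of 0.42, and the 5 Tgαq*44 mice lay above all 25 FVB mice for 9 of them. Postn (ENSMUSG00000027750, chr3:54361109-54391037) encodes periostin, a matricellular protein made by activated fibroblasts. It had 141, 213, 104, 103 and 110.4 CPM in Tgαq*44 and 26.1, 47.2, 35.1, 42.9 and 42.6 CPM in FVB mice, and all 25 FVB mice spanned 26.1 to 67.2 CPM (log2 fold change 1.79 ± 0.21 (SE), adjusted p = 4.5e-08). Tnc, encoding tenascin-C, a matrix protein made during repair, had 2.19, 13.9, 3.45, 6.87 and 4.06 CPM against 0.670, 0.658, 0.454, 1.11 and 1.16 CPM. Every Tgαq*44 mouse was above every FVB mouse for Tnc, with more spread among the Tgαq*44 mice than for Postn (log2 fold change 2.90 ± 0.51 (SE), adjusted p = 5.7e-05). Svep1, encoding a large adhesion protein that binds integrin α9β1, had 56.1, 83.3, 51.0, 62.8 and 57.0 CPM against 31.1, 28.8, 28.5, 29.2 and 27.5 CPM (log2 fold change 1.10 ± 0.11 (SE), adjusted p = 2.0e-09). Its integrin chain gene Itga9 was higher as well (log2 fold change 0.56, adjusted p = 6.1e-04). Mfap5 and Mfap4, components of microfibrils, had log2 fold changes of 0.90 and 1.15.

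Proteoglycan genes had 6 of 11 members higher and none lower, with a median of 0.68, and 3 without Tgαq*44 mouse 2 or without FVB mouse 3. Podn, encoding podocan, had 20.2, 26.7, 25.1, 23.4 and 27.7 CPM in Tgαq*44 and 9.15, 4.83, 8.82, 8.33 and 11.2 CPM in FVB mice (log2 fold change 1.53 ± 0.19 (SE), adjusted p = 1.1e-07). Podn fell from 4 to 8 months in FVB mice (log2 fold change -1.66, adjusted p = 4.4e-08), and Tgαq*44 against 4-month-old FVB mice did not pass the test (-0.13, adjusted p = 0.68). Lum, encoding lumican, which spaces collagen fibrils, ran from 339 to 516 CPM in Tgαq*44 and 233 to 322 CPM in FVB mice and had risen with age in FVB mice (log2 fold change 0.60 here and 0.47 between FVB mice of 8 and 4 months).

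Among 26 matrix proteases and their inhibitors 7 were higher and 1 was lower. Timp1, the tissue inhibitor of metalloproteinases 1, had 6.03, 22.3, 10.4, 14.5 and 7.60 CPM in Tgαq*44 and 3.35, 2.52, 3.57, 3.40 and 4.73 CPM in FVB mice, all 5 above the FVB mice (log2 fold change 1.78 ± 0.30 (SE), adjusted p = 3.3e-05). Timp2 ran from 280.4 to 356 CPM in Tgαq*44 and 156 to 241 CPM in FVB mice (log2 fold change 0.61, adjusted p = 9.5e-05). Collagen processing genes had 4 of 18 members higher, among them Pcolce2, an enhancer of procollagen cleavage (0.62, adjusted p = 4.8e-06), and Adamts2, a procollagen N-propeptidase (0.86, adjusted p = 4.8e-04).

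Of 10 markers of fibroblasts 6 were higher and 1 lower. Their summed level ran from 3003.6 to 4048 CPM in Tgαq*44 and 2477 to 2704 CPM in FVB mice. Col1a1, Col3a1, Lum and Mfap5, given above as matrix genes, are among the higher markers, so this count is not separate from those above. Of 12 markers of activated fibroblasts 4 were higher, Postn, Tnc, Ltbp2 and the transcription factor gene Meox1 (log2 fold change 0.68, adjusted p = 0.0075). Postn and Tnc are also given above as matrix genes. Ltbp2, encoding a binding protein of fibrillin microfibrils, was highest in Tgαq*44 mouse 2, at 4.49, 12.5, 3.57, 3.96 and 5.39 CPM in the 5 mice, and lost its call without that mouse (log2 fold change 0.68, adjusted p = 0.088). Dpep1, a dipeptidase in the fibroblast list, was lower (-0.70, adjusted p = 0.029), a call lost in 4 of the 10 fits that left out 1 mouse, with an adjusted p between 0.060 and 0.090 (without Tgαq*44 mouse 3 or 4, or FVB mouse 1 or 3). Acta2, smooth muscle α-actin and a marker of myofibroblasts, had a log2 fold change of -0.46, adjusted p = 0.20. Whether the number of fibroblasts had a part in the matrix genes was not tested.

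Growth factors and their receptors had 7 of 31 members higher and 1 lower, and 4 higher without FVB mouse 2 or 3. Igf1, insulin-like growth factor 1, had 14.5, 27.6, 16.8, 15.7 and 15.1 CPM in Tgαq*44 and 9.60, 8.77, 9.27, 8.67 and 9.55 CPM in FVB mice (log2 fold change 0.97 ± 0.16 (SE), adjusted p = 1.8e-05). Of 29 genes of transforming growth factor-β (TGF-β) signalling 6 were higher and 2 lower, and 3 were higher without Tgαq*44 mouse 5 or FVB mouse 1. Fstl1, a secreted glycoprotein that binds ligands of this family, had 121, 159, 113, 119 and 123 CPM against 51.9, 59.2, 56.3, 62.1 and 76.7 CPM with no overlap (log2 fold change 1.05 ± 0.15 (SE), adjusted p = 1.3e-06). Tgfbr2, the type 2 receptor, was higher (0.45, adjusted p = 2.0e-04), while the ligand gene Tgfb2 and the type 1 receptor gene Tgfbr1 did not pass the test (log2 fold changes 0.27 and 0.22). Wnt signalling genes included 6 higher of 29, with Dkk3, a member of the Dickkopf family (log2 fold change 1.19, adjusted p = 4.0e-05), and Sfrp2, a secreted frizzled-related protein (1.54, adjusted p = 2.5e-04), and 2 lower, with Wif1, the Wnt inhibitory factor. Wif1 had 11.9, 7.20, 19.3, 10.9 and 14.8 CPM in Tgαq*44 and 46.3, 51.1, 29.0, 34.5 and 45.4 CPM in FVB mice (log2 fold change -1.68 ± 0.20 (SE), adjusted p = 7.5e-08). It had risen with age in FVB mice (8 against 4 months, log2 fold change 1.25, adjusted p = 2.7e-05), and against FVB mice of 4 months the Tgαq*44 mice differed by -0.44, adjusted p = 0.14.

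**Figure D2:**
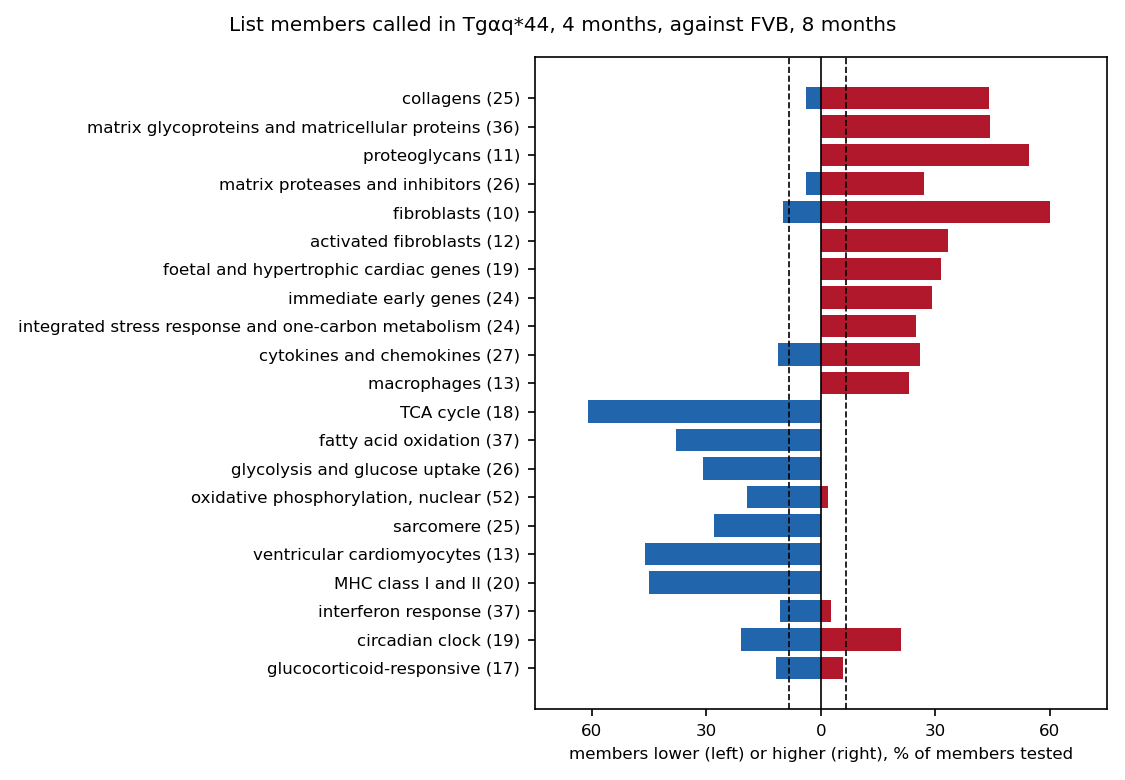
Share of the tested members of 21 gene lists that were higher (red, right) or lower (blue, left) at adjusted p under 0.05, in % of members tested, with the number tested in parentheses and dashed lines at the share of all genes, 6.65% higher and 8.24% lower. Matrix lists reach to the right and metabolic lists, above all the TCA cycle, to the left.

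Several genes of monocytes, macrophages and inflammation were higher at low absolute levels. Mmp12, the macrophage elastase, had 1.81, 4.27, 2.02, 3.10 and 1.70 CPM in Tgαq*44 and 0.223, 0.439, 0.583, 0.0850 and 0.310 CPM in FVB mice (log2 fold change 2.90 ± 0.50 (SE), adjusted p = 4.3e-05). Spp1, encoding osteopontin, had 1.21, 4.82, 2.32, 3.86 and 1.11 CPM and 0.335, 0.658, 0.454, 0.680 and 0.155 CPM (log2 fold change 2.56 ± 0.42 (SE), adjusted p = 2.0e-05). Both genes were higher in all 5 Tgαq*44 mice than in any of these FVB mice. Il1rn, the interleukin 1 receptor antagonist, had 1.10, 2.99, 1.96, 1.86 and 1.77 CPM and 0.223, 0.329, 0.130, 0.340 and 0.466 CPM (log2 fold change 2.68 ± 0.47 (SE), adjusted p = 5.4e-05). Ccl22, a chemokine that acts on CCR4, had 2.03, 1.34, 1.66, 1.62 and 2.51 CPM and 0.112, 0.548, 0.583, 0.595 and 0.233 CPM (log2 fold change 2.07 ± 0.48 (SE), adjusted p = 0.0019). Aldh1a2, which makes retinoic acid, is given beside these genes. Neither Aldh1a2 nor Mmp12, Spp1, Il1rn or Ccl22 is among the macrophage markers used here. Aldh1a2 was more abundant, with 8.06, 14.5, 19.1, 14.4 and 12.3 CPM against 3.01, 3.18, 4.41, 4.42 and 6.13 CPM (log2 fold change 1.67 ± 0.22 (SE), adjusted p = 4.8e-07).

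At 10 months 4 of these 5 genes did not pass the test between the strains. There the log2 fold change was 0.53, adjusted p = 0.59 for Mmp12 and 0.21, adjusted p = 0.79 for Spp1. For Il1rn it was 1.15, adjusted p = 0.12 and for Ccl22 -0.24, adjusted p = 0.74, and only Aldh1a2 of the 5 still passed the test (0.60, adjusted p = 0.034). At 14 months Aldh1a2 was at 3.96 ± 1.12 CPM in Tgαq*44 and 4.45 ± 0.922 CPM in FVB mice. The test of the difference between the contrasts at the earlier and at 10 months gave an adjusted p of 0.070 for Mmp12, 0.0100 for Spp1, 0.21 for Il1rn, 0.015 for Ccl22 and 0.016 for Aldh1a2.

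Of 27 cytokine and chemokine genes 7 were higher and 3 lower. Ccl2, the ligand that draws monocytes through CCR2, had 8.93, 20.8, 19.3, 19.0 and 17.4 CPM in Tgαq*44 and 4.46, 5.70, 4.73, 6.29 and 5.98 CPM in FVB mice (log2 fold change 1.65 ± 0.29 (SE), adjusted p = 7.4e-05). FVB mice had themselves more Ccl2 at 8 than at 4 months (log2 fold change 2.18, adjusted p = 6.3e-05), so that the Tgαq*44 mice were further above FVB mice of their own age (3.83, adjusted p = 8.2e-11). Il33, an alarmin of the interleukin 1 family, had 14.6, 17.3, 22.6, 15.9 and 9.82 CPM against 8.37, 6.14, 5.32, 8.50 and 6.05 CPM (log2 fold change 1.24 ± 0.20 (SE), adjusted p = 1.6e-05), and at 10 months its log2 fold change was 0.08, adjusted p = 0.80. Among 13 macrophage markers 3 were higher, all 13 had a positive log2 fold change and none was lower, with a median of 0.35, and 1 was higher without Tgαq*44 mouse 2. Lyz2, encoding lysozyme, ran from 158 to 266 CPM in Tgαq*44 and 92.8 to 125 CPM in FVB mice (0.80, adjusted p = 2.4e-05). Fcgr2b, the inhibitory Fcγ receptor, is not among these 13 markers. It had 22.9, 40.8, 27.3, 26.6 and 26.5 CPM against 11.2, 16.9, 12.1, 14.1 and 12.9 CPM (log2 fold change 1.10 ± 0.15 (SE), adjusted p = 4.9e-07). Nkg7, 1 of 3 tested markers of natural killer cells, was lower (-1.28, adjusted p = 0.012), which did not hold without Tgαq*44 mouse 2 (adjusted p = 0.050) or FVB mouse 3 (adjusted p = 0.058).

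Antigen presentation genes that passed the test were lower. Of 20 major histocompatibility complex (MHC) and antigen processing genes 9 were lower and all 20 had a negative log2 fold change, with a median of -0.64. This count rested on FVB mouse 3: without it 1 gene was lower, and without Tgαq*44 mouse 2, or with only the 10 mice compared in the fit, the count was 5. H2-K1, a classical class I heavy chain, had 159.8, 97.0, 111, 126 and 111 CPM in Tgαq*44 and 123, 182, 452, 289 and 188 CPM in FVB mice (log2 fold change -1.03 ± 0.28 (SE), adjusted p = 0.0083). FVB mouse 3 was highest and FVB mouse 1 lay within the range of the Tgαq*44 mice. Without mouse 3 the log2 fold change of H2-K1 was -0.69 with an adjusted p of 0.094. Reads of class I genes may be shared between similar copies. In FVB mice 15 of these 20 genes were higher at 8 than at 4 months, and H2-K1 differed between Tgαq*44 and 4-month-old FVB mice by 0.09, adjusted p = 0.86. The class II genes H2-Aa and Cd74 did not pass the test here (log2 fold changes -0.37 and -0.35).

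Of 37 interferon-response genes 4 were lower and 1 was higher, where 8.24% of all genes were lower. The lower count was 1 without FVB mouse 3, without Tgαq*44 mouse 2 or with limma-voom. Igtp and Irgm2 encode interferon-γ-induced GTPases of the immunity-related family, which act on intracellular vacuoles. Igtp had 29.7, 12.3, 14.9, 42.5 and 18.2 CPM in Tgαq*44 and 25.6, 83.1, 275, 73.8 and 19.6 CPM in FVB mice (log2 fold change -2.02 ± 0.61 (SE), adjusted p = 0.018). Irgm2 had 48.3, 20.1, 27.3, 45.7 and 27.4 CPM and 26.9, 107, 254, 96.6 and 27.5 CPM (log2 fold change -1.61 ± 0.50 (SE), adjusted p = 0.022). In both genes FVB mice 1 and 5 were at the level of the Tgαq*44 mice and mouse 3 was highest. Without mouse 3 the log2 fold changes were -1.09 for Igtp (adjusted p = 0.24) and -0.93 for Irgm2 (adjusted p = 0.23), and without Tgαq*44 mouse 2 the adjusted p was 0.057 and 0.069. With limma-voom and all mice neither passed (adjusted p = 0.087 for Igtp and 0.11 for Irgm2). Irf1, a transcription factor gene of the same response, did not overlap between the groups, with 20.5, 16.1, 14.1, 20.1 and 15.7 CPM against 23.2, 27.7, 33.2, 32.6 and 24.2 CPM (log2 fold change -0.70 ± 0.17 (SE), adjusted p = 0.0026), and its call held without mouse 3 (-0.64, adjusted p = 0.013).

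The promoters of Irgm2 and Igtp are shown because both carry the interferon-stimulated response element searched as GAAA, any 2 bases and GAAA on either strand, in capitals, in the 250 bases before the start of the gene (RefSeq, GRCm38.p6, 5′ to 3′ on the gene's strand).
Irgm2, chr11:58214727-58214976, plus strand: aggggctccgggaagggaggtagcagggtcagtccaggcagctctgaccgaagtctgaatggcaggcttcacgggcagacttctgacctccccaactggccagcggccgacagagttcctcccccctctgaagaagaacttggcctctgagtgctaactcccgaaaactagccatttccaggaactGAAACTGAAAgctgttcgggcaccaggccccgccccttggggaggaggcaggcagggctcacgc
Igtp, chr11:58199306-58199555, plus strand: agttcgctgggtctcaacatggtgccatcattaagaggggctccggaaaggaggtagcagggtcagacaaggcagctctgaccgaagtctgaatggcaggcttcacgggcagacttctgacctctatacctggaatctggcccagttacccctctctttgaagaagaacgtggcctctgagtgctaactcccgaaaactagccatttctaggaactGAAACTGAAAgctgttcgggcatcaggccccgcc
The element was found in 18 of 28 interferon-response genes with a promoter in the table and in 3.99% of 27025 gene promoters of that length. A match is a description of the sequence, and binding was not measured.

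**Figure D3:**
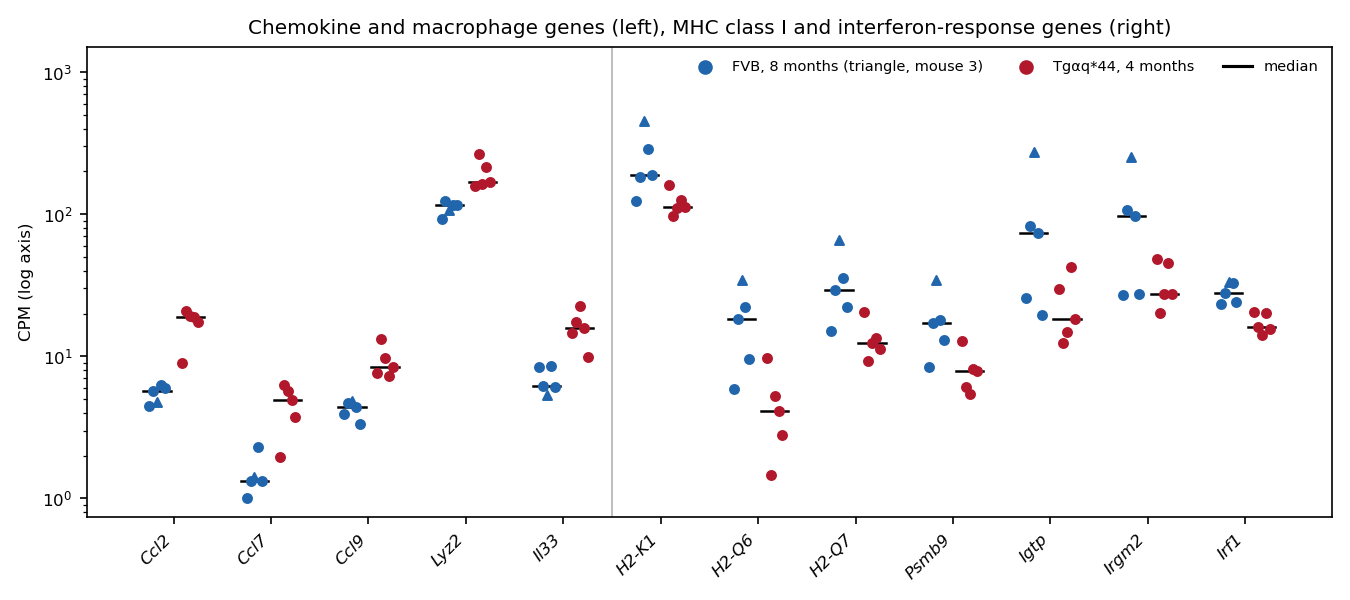
CPM on a log axis of chemokine and macrophage genes on the left and of MHC class I, antigen processing and interferon-response genes on the right, 1 point per mouse with the group median as a bar, FVB at 8 months in blue and Tgαq*44 at 4 months in red. The triangle marks FVB mouse 3, which is the highest FVB mouse for Igtp, Irgm2 and H2-K1 and lies among the other FVB mice for Ccl2.

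In 5 lists of energy metabolism more members were lower than higher. Of 18 genes of the tricarboxylic acid (TCA) cycle 11 were lower and none higher, and all 18 had a negative log2 fold change, with a median of -0.38. Without Tgαq*44 mouse 1 the count was 7. Idh2, mitochondrial isocitrate dehydrogenase, had 1378, 1104, 1501, 1488 and 1531 CPM in Tgαq*44 and 2496, 2179.6, 2815, 2703 and 2619 CPM in FVB mice (log2 fold change -0.87 ± 0.11 (SE), adjusted p = 9.5e-08). Suclg1, a chain of succinyl-CoA ligase, ran from 182 to 228 CPM in Tgαq*44 and 271 to 324 CPM in FVB mice (log2 fold change -0.58, adjusted p = 2.4e-05). Both genes were lower in every Tgαq*44 mouse than in any of the FVB mice.

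Fatty acid oxidation had 14 of 37 genes lower and none higher, with a median of -0.28. Acadvl, the very long-chain acyl-CoA dehydrogenase, had 144, 147, 144, 142 and 164 CPM in Tgαq*44 and 199, 176, 245, 206 and 233 CPM in FVB mice (log2 fold change -0.52 ± 0.10 (SE), adjusted p = 2.1e-04). Slc25a20, which carries acylcarnitines into mitochondria, was lower (-0.56, adjusted p = 4.0e-04). Acot1, a cytosolic acyl-CoA thioesterase outside this list that was named after its values were seen, had 1.92, 1.83, 2.79, 1.57 and 2.81 CPM and 3.01, 4.17, 7.91, 6.97 and 5.90 CPM (log2 fold change -1.39 ± 0.31 (SE), adjusted p = 0.0014). The regulators Ppara and Ppargc1a did not pass the test (log2 fold changes 0.52 and 0.29), though Ppara did with only the 10 mice compared in the fit (adjusted p = 0.020). In FVB mice both had fallen from 4 to 8 months (-1.22, adjusted p = 3.7e-04 and -1.17, adjusted p = 3.5e-04), so that against FVB mice of 4 months both were lower in Tgαq*44 mice (-0.71, adjusted p = 0.030 and -0.88, adjusted p = 0.0042).

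Of 52 nuclear genes of oxidative phosphorylation 10 were lower and 1 was higher, 17 had a positive log2 fold change, and the median was -0.09. The ATP synthase gene Atp5a1 had 2128, 2417, 2584, 2514 and 2483 CPM in Tgαq*44 and 4443, 3518, 3852, 3827 and 3731 CPM in FVB mice (log2 fold change -0.68 ± 0.08 (SE), adjusted p = 2.5e-08), and Atp5b, the catalytic β subunit, was lower by a like amount (-0.67, adjusted p = 8.1e-08). Of 10 mitochondrially encoded genes 3 were lower, among them mt-Cytb (-0.48, adjusted p = 0.013), but none with only the 10 mice compared in the fit, without Tgαq*44 mouse 1 or without FVB mouse 1. Glycolysis and glucose uptake had 8 of 26 genes lower and none higher, with a median of -0.20. Aldoa, muscle aldolase, had 2784, 2889.6, 2864, 3234 and 3189 CPM and 5804, 4018, 5642, 5778 and 5937 CPM (log2 fold change -0.86 ± 0.14 (SE), adjusted p = 1.4e-05). This gene had risen with age in FVB mice (8 against 4 months, log2 fold change 0.70, adjusted p = 3.6e-04), and the Tgαq*44 mice differed from FVB mice of their own age by -0.17, adjusted p = 0.45. Eno3 and Ldhb, encoding β-enolase and the heart subunit of lactate dehydrogenase, were lower against both FVB groups (-0.67 and -0.64 against 8 months, -0.33 and -0.40 against 4 months). Transporter genes Slc2a4 and Slc2a1 and hexokinase 2 did not pass the test (log2 fold changes -0.21, -0.04 and, for Hk2, -0.14).

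Larger falls were seen in single metabolic genes outside these lists. Cyp2b10 (ENSMUSG00000030483, chr7:25897620-25926624), a cytochrome P450 known as a target of the nuclear receptor CAR in liver, had 3.01, 3.23, 3.80, 3.20 and 3.03 CPM in Tgαq*44 and 25.1, 30.1, 55.8, 19.7 and 42.2 CPM in FVB mice. It was 10.6 times lower, with the groups far apart (log2 fold change -3.41 ± 0.37 (SE), adjusted p = 6.3e-09). Acsm5, a medium-chain acyl-CoA synthetase, had 1.53, 1.40, 1.66, 1.43 and 1.40 CPM and 5.91, 9.76, 10.4, 5.44 and 7.53 CPM (log2 fold change -2.39 ± 0.27 (SE), adjusted p = 9.5e-09). Scd4, a stearoyl-CoA desaturase, ran from 1.81 to 4.69 CPM in Tgαq*44 and 8.15 to 24.8 CPM in FVB mice (-2.35, adjusted p = 4.6e-05).

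These genes were also lower against FVB mice of the same age. For Cyp2b10, Acsm5 and Scd4 the FVB groups of 8 and 4 months differed on the log2 scale by -0.01, 0.02 and 0.21, none past the threshold, and the log2 fold changes against 4-month-old FVB mice were -3.42, adjusted p = 1.9e-09, -2.37, adjusted p = 4.6e-09 and -2.14, adjusted p = 1.2e-04.

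A minority of sarcomere and calcium handling genes were lower, where 8.24% of all genes were lower and 6.65% higher. Of 25 sarcomere genes 7 were lower and none higher, with a median of -0.19. Tcap, encoding telethonin, which caps titin at the Z-disc, had 190.2, 162, 164, 158 and 142 CPM in Tgαq*44 and 459.7, 300.4, 575, 358 and 452 CPM in FVB mice (log2 fold change -1.39 ± 0.17 (SE), adjusted p = 1.1e-07). Tnni3, cardiac troponin I, ran from 2162 to 2842 CPM in Tgαq*44 and 3395 to 3596 CPM in FVB mice (-0.49, adjusted p = 1.6e-04). Myh6, the adult cardiac myosin heavy chain, ran from 9038 to 13131 CPM and 14138 to 17988 CPM (-0.54, adjusted p = 0.0087). Of 23 calcium handling genes 3 were lower and 1 higher, and the lower count was 2 in some other settings. Atp2a2, the sarcoplasmic reticulum calcium pump SERCA2, had 7898, 8708, 9627, 9029 and 9354 CPM against 11053, 12115, 12940.0, 13638 and 13237 CPM (log2 fold change -0.50 ± 0.08 (SE), adjusted p = 3.7e-05). Its inhibitor Pln and the release channel Ryr2 did not pass the test (log2 fold changes 0.09 and -0.23). Of 13 ventricular cardiomyocyte markers 6 were lower and none higher, and 3 without Tgαq*44 mouse 2. Myh6, Tnni3 and Atp2a2, given above, are among the lower markers, so this count is not separate from those above. The summed level of the 13 markers ran from 50442 to 63437 CPM in Tgαq*44 and 70613 to 77534 CPM in FVB mice. Its part in the metabolic and contractile genes was not tested.

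Channel genes had 3 of 33 members higher and 6 lower, where 6.65% of all genes were higher and 8.24% lower. Clcn1, the chloride channel best known from skeletal muscle, had 5.32, 2.07, 6.83, 5.34 and 4.95 CPM in Tgαq*44 and 12.6, 11.6, 13.0, 12.3 and 12.5 CPM in FVB mice (log2 fold change -1.34 ± 0.21 (SE), adjusted p = 1.1e-05). The number of higher channel genes was 1 without FVB mouse 2. Kcnn3, a small-conductance calcium-activated potassium channel outside this list, had 5.97, 6.65, 5.82, 5.44 and 5.09 CPM against 2.79, 1.97, 2.01, 2.30 and 2.64 CPM (log2 fold change 1.31 ± 0.17 (SE), adjusted p = 3.2e-07), and its fall with age in FVB mice was -0.77, adjusted p = 0.0023. Kcnk1, a 2-pore potassium channel, was at the limit of detection, with 1 count in all Tgαq*44 libraries and 25 in all FVB libraries, a ratio of 37.0 with a 95% counting interval of 6.05 to 1518. Mid1-ps1, a pseudogene, had 3 and 50 counts. In the other direction Vmn2r3, a vomeronasal receptor gene, had 25 counts in all Tgαq*44 and 0 in all FVB libraries, at least 5.64-fold higher against a floor of 3 counts over the group.

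Immediate early genes, which respond within minutes to growth and stretch signals, were higher in 7 of 24 members and lower in none, with a median of 0.63. Egr2 had 2.19, 5.37, 3.68, 4.44 and 7.16 CPM in Tgαq*44 and 1.00, 1.10, 1.10, 0.935 and 1.09 CPM in FVB mice (log2 fold change 2.10 ± 0.45 (SE), adjusted p = 8.2e-04). Egr3 had 9.15, 19.9, 13.3, 16.7 and 29.8 CPM and 3.12, 4.39, 3.57, 4.00 and 6.67 CPM (log2 fold change 2.01 ± 0.39 (SE), adjusted p = 2.4e-04). For both transcription factor genes every Tgαq*44 mouse was above every FVB mouse, and mouse 5 was highest in each group of Egr3. Fos had 2.19, 9.46, 9.39, 5.87 and 18.0 CPM and 2.23, 2.74, 3.18, 2.13 and 1.16 CPM, which overlapped (log2 fold change 1.95 ± 0.48 (SE), adjusted p = 0.0033), and Fosb had 1.26, 3.54, 5.47, 2.81 and 6.28 CPM and 0.223, 0.768, 1.88, 1.28 and 0.310 CPM (log2 fold change 2.00 ± 0.39 (SE), adjusted p = 2.3e-04). Tgαq*44 mouse 1 was the lowest of its group in Egr2, Egr3, Fos and Fosb. Jun did not pass the test (log2 fold change 0.26).

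The promoter of Egr2 is shown because it is 1 of 2 promoters of immediate early genes, with Zfp36, that held the CArG box of serum response factor (in capitals, either strand) in the 250 bases before the start (RefSeq, GRCm38.p6).
Egr2, chr10:67537619-67537868, plus strand: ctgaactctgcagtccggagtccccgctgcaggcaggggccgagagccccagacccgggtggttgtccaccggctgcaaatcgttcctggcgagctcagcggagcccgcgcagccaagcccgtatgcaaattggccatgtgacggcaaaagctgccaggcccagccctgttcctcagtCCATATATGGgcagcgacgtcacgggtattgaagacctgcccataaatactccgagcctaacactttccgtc
This element was found in 2 of 18 immediate early genes with a promoter in the table and in 1.81% of all gene promoters.

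The integrated stress response adapts amino acid supply through the transcription factor ATF4, and one-carbon metabolism in mitochondria is among its targets. Of 24 genes of both 6 were higher and none lower, with a median of 0.46. Asns, asparagine synthetase, had 8.49, 15.2, 7.73, 8.68 and 9.75 CPM in Tgαq*44 and 2.68, 5.16, 3.95, 4.93 and 3.41 CPM in FVB mice (log2 fold change 1.30 ± 0.21 (SE), adjusted p = 1.2e-05). Mthfd2, a mitochondrial enzyme of the folate cycle, had 7.67, 12.9, 4.69, 7.96 and 9.16 CPM and 1.34, 2.52, 3.70, 4.00 and 4.11 CPM (log2 fold change 1.39 ± 0.24 (SE), adjusted p = 3.8e-05). Both were higher in every Tgαq*44 mouse. Gdf15, a secreted stress hormone, had 9.92, 17.4, 17.6, 24.2 and 36.3 CPM and 6.47, 7.35, 6.29, 6.63 and 16.5 CPM (log2 fold change 1.27 ± 0.40 (SE), adjusted p = 0.026). FVB mouse 5 had the most Gdf15 among the FVB mice, within the Tgαq*44 range, and the call of Gdf15 was lost in 6 of the 10 fits that left out 1 mouse, where its adjusted p was between 0.051 and 0.099. Atf4 and Ddit3 did not pass the test (log2 fold changes 0.03 and 0.02). Of 25 genes of the unfolded protein and heat shock response none was higher and 2 were lower, near the 8.24% of all genes that were lower. Cryab, the αB-crystallin chaperone, was 1 of the 2 (-0.62, adjusted p = 0.0034).

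The clock and the glucocorticoid response bear on the choice of FVB mice at 8 months as the reference. The core clock drives transcription through E-boxes, and its repressors and output genes peak at set times of the day, while glucocorticoids act through their receptor on genes such as Fkbp5. The time of day of collection is not given in the sources used here. Against FVB mice of 8 months 1 of 17 glucocorticoid-responsive genes was higher and 2 were lower, with a median of 0.04. Of all genes 6.65% were higher and 8.24% lower in that comparison. Against FVB mice of 4 months 13 were lower (8.45% of all genes) with a median of -1.41, and in FVB mice 12 were lower at 8 than at 4 months (6.09% of all genes) with a median of -1.29. These 3 comparisons share mice. The reference was chosen for its level of these genes, so the counts describe that choice and are no test of it. Fkbp5, a co-chaperone of the receptor, ran from 6.30 to 10.1 CPM in Tgαq*44 and 5.19 to 7.45 CPM in FVB mice, and from 22.9 to 78.5 CPM in FVB mice of 4 months. Its log2 fold change was 0.17, adjusted p = 0.82 here. Tsc22d3, the glucocorticoid-induced leucine zipper, ran from 118 to 196 CPM in Tgαq*44 and 115 to 163 CPM in FVB mice, and from 211 to 453 CPM at 4 months in FVB mice, with a log2 fold change of 0.23, adjusted p = 0.52 here.

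Few glucocorticoid-responsive genes passed the test here, a share near that of all genes. Zbtb16, a zinc finger repressor, had 79.2, 73.2, 51.3, 52.4 and 61.7 CPM in Tgαq*44 and 32.9, 37.5, 30.1, 34.0 and 42.3 CPM in FVB mice (log2 fold change 0.85 ± 0.29 (SE), adjusted p = 0.039), while 4-month-old FVB mice ran from 158 to 288 CPM, so that the Tgαq*44 mice lay between the FVB groups. The call of Zbtb16 was lost in 7 of the 10 fits that left out 1 mouse, with an adjusted p between 0.050 and 0.094. Klf9 had 34.7, 22.5, 27.3, 30.7 and 29.1 CPM against 49.4, 43.0, 53.1, 40.9 and 46.3 CPM (log2 fold change -0.69 ± 0.18 (SE), adjusted p = 0.0077), and Klf15 34.4, 32.6, 39.7, 43.6 and 48.1 CPM against 54.7, 49.6, 74.8, 62.4 and 77.8 CPM (log2 fold change -0.69 ± 0.19 (SE), adjusted p = 0.0092). Both encode Krüppel-like factors and were lower in every Tgαq*44 mouse than in any FVB mouse of 8 or 4 months. Nr3c1, the receptor itself, had a log2 fold change of 0.02, adjusted p = 0.96. Cdkn1a, which encodes the cell cycle inhibitor p21 and is also induced by glucocorticoids, had 0.24, adjusted p = 0.69 here, -1.97, adjusted p = 1.4e-05 against 4-month-old FVB mice and -2.21, adjusted p = 7.3e-06 between the FVB groups.

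**Figure D4:**
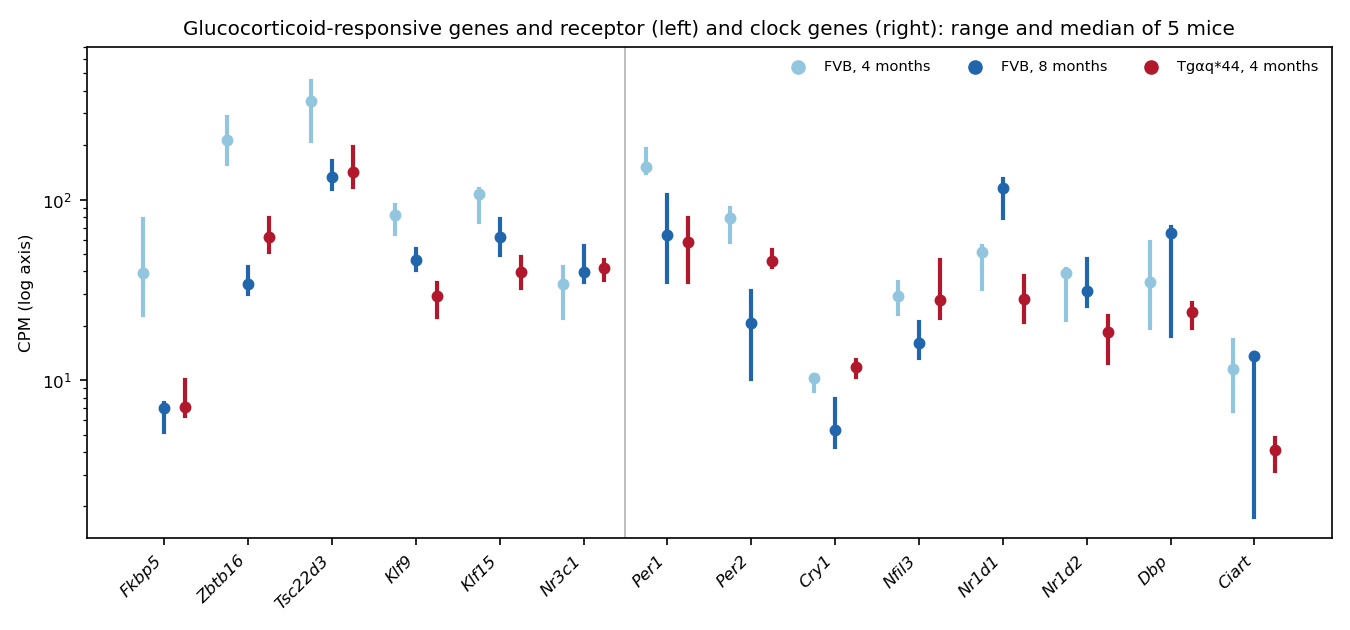
CPM on a log axis of glucocorticoid-responsive genes with the receptor gene Nr3c1 (left) and clock genes (right) in FVB mice at 4 months (light blue), FVB mice at 8 months (dark blue) and Tgαq*44 mice at 4 months (red), as the range (line) and the median (point) of 5 mice. For Fkbp5 the Tgαq*44 mice lie with the FVB mice of 8 months, and the FVB mice of 4 months lie above both.

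Of 19 clock genes 4 were higher and 4 were lower. The higher genes were Cry1, Per2, Nfil3 and Hlf, of which Per2 and Hlf were named after their values were seen, and the lower genes were Nr1d1, Ciart, Nr1d2 and Dbp. Nr1d1, encoding the repressor REV-ERBα, had 37.9, 21.1, 28.0, 31.3 and 21.3 CPM in Tgαq*44 and 130.2, 79.4, 110.5, 117 and 123 CPM in FVB mice (log2 fold change -2.00 ± 0.31 (SE), adjusted p = 7.3e-06). Cry1, a repressor of the clock's activators, had 11.5, 12.9, 11.9, 10.4 and 11.9 CPM and 4.24, 5.26, 4.86, 5.70 and 7.84 CPM (log2 fold change 1.06 ± 0.16 (SE), adjusted p = 5.8e-06). Neither gene overlapped between the groups. Ciart, another repressor, had 3.12, 4.09, 4.75, 3.86 and 4.50 CPM and 14.1, 1.75, 13.6, 13.9 and 11.2 CPM (log2 fold change -1.44 ± 0.33 (SE), adjusted p = 0.0017), and Dbp, an output transcription factor, had 24.8, 23.1, 26.7, 23.8 and 19.3 CPM and 69.2, 17.7, 70.4, 57.6 and 65.7 CPM (log2 fold change -1.26 ± 0.32 (SE), adjusted p = 0.0051). FVB mouse 2 was low in both of these and high in Arntl, encoding the activator BMAL1, which had 9.93, 26.1, 13.7, 12.3 and 13.7 CPM in FVB mice (log2 fold change -0.56, adjusted p = 0.19). Without FVB mouse 2 the log2 fold changes were -1.70 for Ciart, -1.48 for Dbp and -2.10 for Nr1d1, and these calls held. Per2 had 45.8, 52.3, 46.5, 42.3 and 42.5 CPM in Tgαq*44 and 20.6, 10.2, 17.6, 25.2 and 31.2 CPM in FVB mice (log2 fold change 1.12, adjusted p = 0.016), and 4-month-old FVB mice had more Per2 than those of 8 months (8 against 4 months, -1.83, adjusted p = 1.5e-04). Without FVB mouse 2 the call of Per2 was lost (adjusted p = 0.055). Whether the time of collection had a part in these genes was not tested.

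The promoters of Ciart and Cry1 are shown because they hold the canonical E-box CACGTG, in capitals, and changed in opposite directions (RefSeq, GRCm38.p6, 250 bases before the start, 5′ to 3′).
Ciart, chr3:95882229-95882478, minus strand: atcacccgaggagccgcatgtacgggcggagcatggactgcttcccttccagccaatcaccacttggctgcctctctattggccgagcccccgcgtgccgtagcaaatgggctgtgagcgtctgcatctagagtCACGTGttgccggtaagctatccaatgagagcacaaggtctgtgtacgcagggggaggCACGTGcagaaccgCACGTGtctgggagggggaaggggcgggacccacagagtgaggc
Cry1, chr10:85185055-85185304, minus strand: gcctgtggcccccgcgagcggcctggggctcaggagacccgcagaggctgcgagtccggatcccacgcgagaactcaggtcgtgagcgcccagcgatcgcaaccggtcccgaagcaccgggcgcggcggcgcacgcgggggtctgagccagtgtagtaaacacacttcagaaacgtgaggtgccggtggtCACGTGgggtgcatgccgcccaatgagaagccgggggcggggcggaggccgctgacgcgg
There were 3 copies in Ciart and 1 in Cry1. The motif, which is its own reverse complement, was in 5 of 16 clock genes with a promoter in the table and in 8.09% of all gene promoters.

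Age in FVB mice was also read in a contrast that shares no mouse with this one, FVB mice of 10 against 4 months, added after the data had been seen. It had 230 DEGs higher (1.52% of all genes) and 239 lower (1.58%). Its reference was again the FVB mice of 4 months. Glucocorticoid-responsive genes had a median log2 fold change of -1.06 in it, so age and that state cannot be told apart. Of the 171 DEGs lower in Tgαq*44 mice 40 were DEGs higher with age in FVB mice (23.4% of the 171 and 17.4% of the 230). Of the 199 higher DEGs, 14 were lower and 21 higher with age. Genes of the first kind included Cpxm2, a carboxypeptidase-like protein, with 31.3, 36.3, 40.0, 35.5 and 40.9 CPM in Tgαq*44 and 110.4, 93.8, 60.4, 70.8 and 86.4 CPM in FVB mice (log2 fold change -1.19 ± 0.13 (SE), adjusted p = 2.9e-09), where 10-month-old FVB mice were above 4-month-old FVB mice by 1.36, adjusted p = 2.1e-10. Tgαq*44 and FVB mice of the same 4 months differed in Cpxm2 by 0.17, adjusted p = 0.40. Cdh4, encoding R-cadherin, had 7.29, 6.83, 9.98, 10.4 and 12.0 CPM and 31.0, 25.0, 32.7, 33.1 and 34.3 CPM (log2 fold change -1.75 ± 0.18 (SE), adjusted p = 1.4e-09), and is not among these 40, since its rise with age in FVB mice was below the fold change minimum (0.79, adjusted p = 9.6e-04). Clmp, an adhesion molecule of cell junctions, was lower here (-1.07, adjusted p = 2.3e-06) and higher with age in FVB mice (1.05, adjusted p = 4.1e-06), with a log2 fold change of 0.20, adjusted p = 0.44 between Tgαq*44 and FVB mice at 4 months.

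Other lower genes differed from FVB mice of both ages. Tmprss4, a membrane serine protease, had 0.110, 0.305, 0.535, 0.763 and 0.443 CPM in Tgαq*44 and 4.80, 4.28, 3.24, 2.89 and 4.81 CPM in FVB mice (log2 fold change -3.16 ± 0.35 (SE), adjusted p = 8.2e-09), and against 4-month-old FVB mice its log2 fold change was -1.72, adjusted p = 0.0010. Cds1, a CDP-diacylglycerol synthase that acts in the resynthesis of phosphatidylinositol, the substrate of phospholipase C, had 7.95, 9.70, 7.19, 4.96 and 4.80 CPM against 22.0, 20.1, 23.8, 17.1 and 19.6 CPM (log2 fold change -1.57 ± 0.15 (SE), adjusted p = 3.4e-10), and -1.18, adjusted p = 9.0e-08 against 4-month-old FVB mice. Sh3gl2, encoding endophilin A1, ran from 0.369 to 0.854 CPM and 1.96 to 3.88 CPM (-2.32, adjusted p = 6.8e-09), and -1.97, adjusted p = 1.7e-07 against FVB mice of 4 months. Among the higher genes Cys1, encoding the cilium protein cystin, and Tfrc, the transferrin receptor, showed the reverse. Cys1 had 11.1, 13.1, 11.6, 9.73 and 12.6 CPM in Tgαq*44 and 3.46, 2.52, 3.11, 3.23 and 6.67 CPM in FVB mice (log2 fold change 1.59 ± 0.20 (SE), adjusted p = 2.1e-07) and 0.43, adjusted p = 0.11 against 4-month-old FVB mice. Tfrc had 37.3, 30.6, 10.2, 12.5 and 11.6 CPM and 5.91, 7.57, 8.62, 5.27 and 5.04 CPM (log2 fold change 1.65 ± 0.37 (SE), adjusted p = 0.0015) and -0.02, adjusted p = 0.98 against 4-month-old FVB mice, and Tgαq*44 mice 1 and 2 were well above the other 3.

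The strain contrast at 10 months, Tgαq*44 against FVB mice, shares no mouse with this one and has no age difference. It had 844 DEGs higher (5.58%) and 639 lower (4.22%). Of the 199 higher DEGs 87 were DEGs in the same direction at 10 months, which is 43.7% of the 199 and 10.3% of the 844, and of the 171 lower DEGs 77 were, 45.0% of the 171 and 12.1% of the 639. In the opposite direction there were 4 and 9. The difference between both contrasts passed the test for 65 of the 199 higher DEGs, of which 27 had a larger change at 10 months and 38 a smaller or opposite one. It passed for 53 of the 171 lower DEGs, of which 12 had a larger and 41 a smaller or opposite change, against 14.7% of all genes for which the difference passed. The DEGs were chosen by the contrast here, which is part of this difference. That choice alone raises the share that passes and favours a smaller change at 10 months. The 14.7% is thus not a like comparison.

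Genes that went further at 10 months included matrix and stress genes. Svep1 had a log2 fold change of 1.10 here and 2.20 at 10 months (adjusted p of the difference 1.4e-06), Mfap4 1.15 and 3.33 (6.7e-07), and Ltbp2 1.13 and 4.22 (2.0e-07). For Asns the values were 1.30 and 3.36 (1.2e-06) and for Mthfd2 1.39 and 4.03 (2.3e-07). Mthfd2 thus had 8.48 ± 2.98 CPM at 4 months and 29.3 ± 4.19 CPM at 10 months in Tgαq*44 mice, and 3.13 ± 1.18 CPM in FVB mice of 8 months and 1.80 ± 0.630 CPM at 10 months. Ncam1, a neural cell adhesion molecule, went from 1.23 to 3.82 (2.3e-07). Among the lower genes Clcn1 went from -1.34 to -5.27 (1.6e-09). By list, 24 of 25 collagens, 49 of 52 oxidative phosphorylation genes and 18 of 18 TCA cycle genes were called at 10 months, against 11, 10 and 11 here in those directions. Between Tgαq*44 and FVB mice of 4 months 17 collagens were higher, with a median of 0.84. There 18 oxidative phosphorylation and 8 TCA cycle genes were lower, where 8.45% of all genes were lower. The contrast here has an age difference, which those at 4 and at 10 months do not have. Of all genes 17.1% were higher and 16.4% lower at 10 months by the same rule.

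Other genes changed sides between the 2 contrasts, of which only the earlier has an age difference. Vgll2, a cofactor of TEAD transcription factors in muscle, had 1.04, 3.54, 1.01, 1.81 and 2.14 CPM in Tgαq*44 and 4.80, 6.25, 7.65, 5.61 and 9.93 CPM in FVB mice (log2 fold change -1.87 ± 0.32 (SE), adjusted p = 4.1e-05). At 10 months it was higher in Tgαq*44 mice, at 51.0 ± 11.0 CPM against 12.1 ± 3.39 CPM (log2 fold change 2.08, adjusted p = 6.6e-09), and the adjusted p of the difference was 1.8e-09. Tgαq*44 and FVB mice of 4 months did not differ in Vgll2 beyond the test (-0.03, adjusted p = 0.97), and FVB mice had more at 8 than at 4 months (1.84, adjusted p = 1.4e-04). Edn3 was lower here, also against FVB mice of 4 months (-1.42, adjusted p = 1.0e-04), and higher at 10 months (1.19, adjusted p = 3.9e-06; adjusted p of the difference 1.6e-09). Efhd1, a mitochondrial calcium-binding protein, and Syndig1, a synapse differentiation protein, were lower here (-1.05 and -1.58) and higher at 10 months (1.05 and 1.76), with adjusted p of the difference of 1.5e-07 and 4.6e-09. The same holds for the sodium-proton exchanger gene Slc9a3 (-2.13 and 1.04, adjusted p of the difference 4.6e-07). For Efhd1, Syndig1 and Slc9a3 the parts of strain and age in the lower value here cannot be told apart. Cry1 was higher here and did not pass the test at 10 months (log2 fold change -0.35, adjusted p = 0.093), and the difference passed (adjusted p = 1.4e-05).

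**Figure D5:**
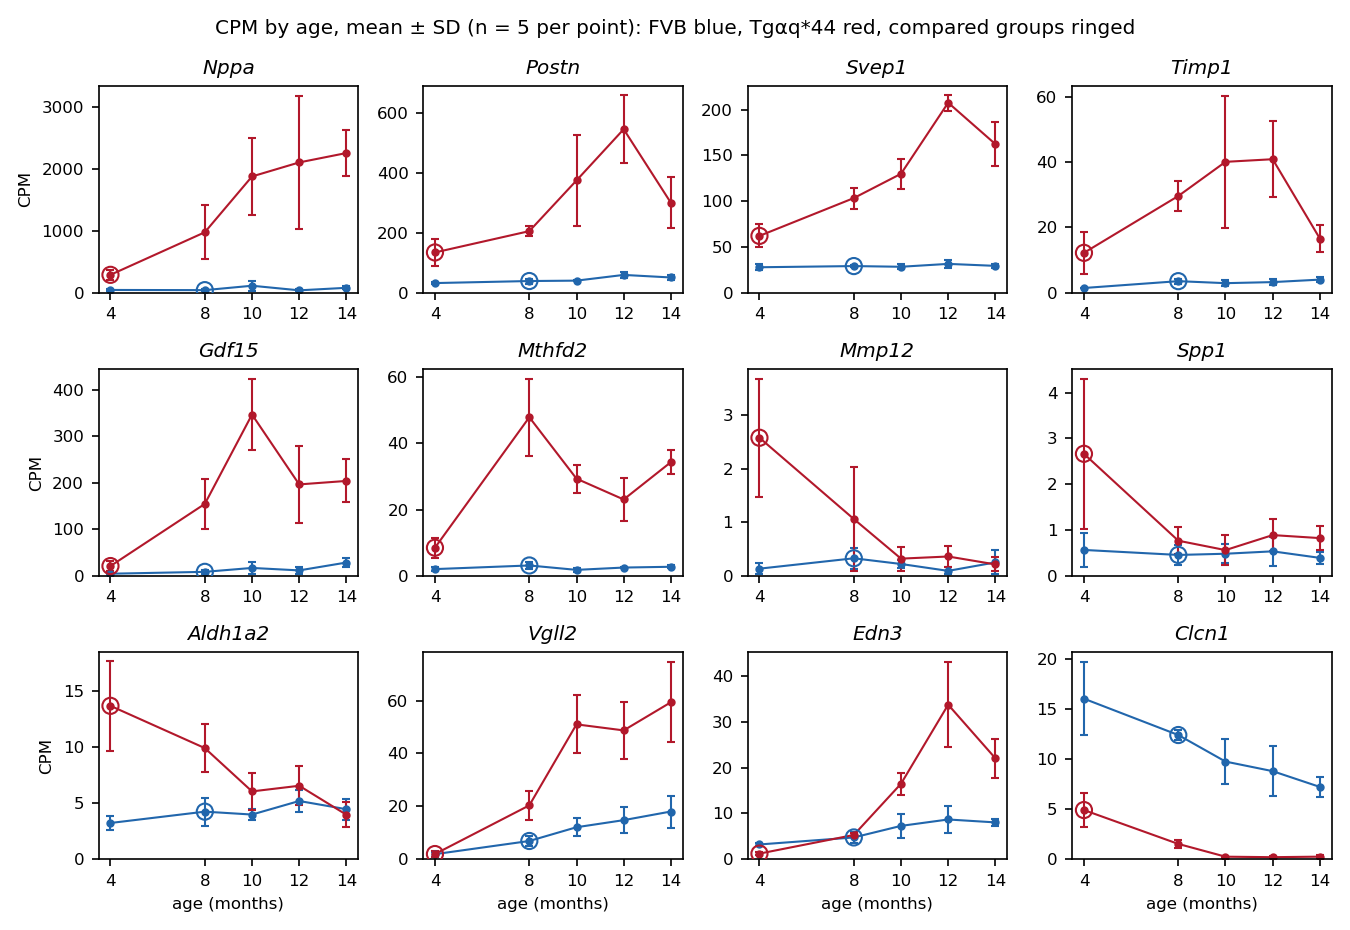
CPM by age in months of 12 genes, mean ± SD of 5 mice per point, FVB in blue and Tgαq*44 in red, with the compared groups ringed. Nppa, Postn and Svep1 stay above FVB mice at every age, Mmp12, Spp1 and Aldh1a2 are highest in Tgαq*44 mice at 4 months, and Vgll2 and Edn3 start at or below the FVB level and pass it.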

How the data were processed

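RNA of the apex of the left ventricle of 50 mice was sequenced as polyA-selected libraries. The authors used Cutadapt for adapter trimming, FastQC for read quality, STAR for alignment to GRCm38.p6 and HTSeq for counting, and deposited raw counts of 54532 gene identifiers, of which 54409 matched the GENCODE vM21 annotation. The sources used here give neither versions nor the strand setting, so reads of overlapping or antisense genes may not be told apart.

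Counts were analysed with edgeR 4.0.16 in R 4.3.3. A gene was tested if any 1 group had over 3 mice above 0.5 CPM (15129 genes), library sizes were scaled by TMM, and 1 quasi-likelihood model was fitted to the 10 groups. The F-test of the contrast was adjusted by Benjamini-Hochberg over all genes tested. DEGs had an absolute log2 fold change above 1 and an adjusted p under 0.05, and list members were counted at adjusted p under 0.05. No fold change minimum, limma-voom (limma 3.58.1), DESeq2 1.42.0, other normalisations and filters, glmTreat and fits without each mouse were tried as alternatives. In data simulated for Tgαq*44 at 4 months against FVB at 8 months over 15129 genes, 14929 were left unchanged. Recovery meant an adjusted p under 0.05 in the right direction, without the fold change minimum. It was reached by 26.5% of genes changed 1.5-fold, 74.2% of those changed 2-fold and 87.9% of those changed 3-fold. The contrast itself had 2253 genes called, more than were changed in the simulation. These shares thus do not give the sensitivity of the DEG calls. Counting intervals are 95% exact intervals and cover counting error only, as does the floor of 3 counts. Total counts over all 50 libraries ran from 8772914 to 21601942.

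Named genes were Gnaq, the genes with the largest change and lowest p without overlap, up to 6 called members per list with its defining members, genes outside the FVB range, genes that differed from the contrast at 10 months and genes named in the study. The exceptions Per2, Hlf and Acot1 were added after their values were seen. Some genes that the rule names are not reported here. The members and the 54 lists were chosen with earlier results of these data known. Promoters were 250 bases before the start in RefSeq, GRCm38.p6. Mouse numbers recur in each group but mark no shared litter or day in the labels. No source used here names the sequencing run of a library, so whether runs differed between groups was not tested.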

Additional observations from a re-analysis of the deposited data

Results flagged for a closer look

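Among the 280 groups of 5 mice tested, 24 had 1 mouse further from the rest than the gap expected within a group by Dixon's criterion, which chance alone gives in about 1 of 20 groups. FVB mouse 1 was high in CPM of Atp5b (5190.2) and Myh7 (1075). FVB mouse 1 was low in CPM of Ldhb (735). FVB mouse 2 was high in CPM of Arntl (26.1) and Nr3c1 (55.1). FVB mouse 2 was low in CPM of Aldoa (4018), Ciart (1.75) and Dbp (17.7). FVB mouse 3 was high in CPM of Igtp (275). FVB mouse 5 was high in CPM of Cys1 (6.67), Gdf15 (16.5) and Jun (65.0). Tgαq*44 mouse 2 was high in CPM of Asns (15.2), Col5a2 (43.2), Fcgr2b (40.8), Fkbp5 (10.1), Fstl1 (159), Igf1 (27.6), Ltbp2 (12.5) and Mfap5 (88.4). Tgαq*44 mouse 3 was high in CPM of Cyp2b10 (3.80). Tgαq*44 mouse 4 was high in CPM of Kcnk1 (0.0477). Tgαq*44 mouse 5 was high in CPM of Acadvl (164) and Nfil3 (46.6).

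Of all genes 14.7% passed the edgeR test of the difference between both contrasts. The 14 genes given here are among the higher and lower DEGs with the lowest p of that difference. Their log2 fold change of Tgαq*44 at 4 months against FVB at 8 months differed from that of Tgαq*44 against FVB at 10 months by this test, which was added after the data had been seen. DEGs were chosen by the earlier contrast, which is part of the difference, so 14.7% is not a like share for them. The difference, earlier minus later contrast on the log2 scale, was Asns -2.06 (adjusted p = 1.2e-06), Clcn1 3.93 (adjusted p = 1.6e-09), Clmp -1.85 (adjusted p = 1.8e-08), Cry1 1.40 (adjusted p = 1.4e-05) and Edn3 -3.15 (adjusted p = 1.6e-09). It was Efhd1 -2.10 (adjusted p = 1.5e-07), Ltbp2 -3.08 (adjusted p = 2.0e-07), Mfap4 -2.18 (adjusted p = 6.7e-07), Mthfd2 -2.64 (adjusted p = 2.3e-07) and Ncam1 -2.59 (adjusted p = 2.3e-07). For the remaining genes it was Slc9a3 -3.17 (adjusted p = 4.6e-07), Svep1 -1.10 (adjusted p = 1.4e-06), Syndig1 -3.34 (adjusted p = 4.6e-09) and Vgll2 -3.95 (adjusted p = 1.8e-09). The explanation of these differences was not tested.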

How the results depend on the processing

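The 370 DEGs numbered from 301 to 387 under DESeq2, limma-voom, RLE scaling, library sizes without mitochondrially encoded genes, 3 other low-count filters, a fit of only the 10 mice, protein-coding genes only and the replicate block. A mean of at least 5 CPM left 113 DEGs, 63 higher and 50 lower, and glmTreat against a log2 fold change of 0.5 called 137, 71 higher and 66 lower. Without a fold change minimum 2253 genes were called, 1006 higher and 1247 lower. Without 1 mouse the count of DEGs was 288 to 390, with 153 to 214 higher and 129 to 180 lower, and that of genes at adjusted p under 0.05 was 1637 to 2177. DEGs with all Tgαq*44 mice outside all FVB mice numbered 57, and 60 to 74 without 1 Tgαq*44 mouse. The condition is easier to meet with fewer Tgαq*44 mice, so these higher counts are no test of the 57. No DEG reversed. With the mouse number as a replicate block there were 385 DEGs, 364 of them shared with the 370, 2835 genes at adjusted p under 0.05, 8 lower interferon-response genes in place of 4, 6 lower oxidative stress genes in place of 3, and Acta1 passed (adjusted p = 0.037). Same-numbered mice correlated with r from -0.107 to 0.477 and 2 of 5 correlated best with their own number, so the numbers were not taken as pairs. Of the 138 named genes under 22 settings, 2914 of 3015 results kept their side of the threshold, 96 lost and 5 gained it. Depth limits low genes, with 1 count in all FVB libraries for Gpr3 (24 in Tgαq*44, ratio 16.2, 2.65 to 668) and 0 for Sprr1a (12 in Tgαq*44, at least 2.71-fold higher).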
